A study of Mus musculus with 18 samples.

Results

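Islets of mice that carry a rodent islet amyloid polypeptide transgene (rIAPP) were compared with islets of wild-type (WT) mice, across every gene with enough counts to test. The 6 rIAPP and 6 WT libraries were taken by their genotype labels, and they are 12 of the 18 libraries of the series. The other 6 come from mice with a human IAPP transgene (hIAPP) and enter no mean of the comparison. All animals were 6 wk old and on the FVB background, were bred at one site on the same diet and light cycle, and gave 1 library each. The rIAPP mice express rodent IAPP, and the hIAPP mice human IAPP, in beta cells under the insulin II promoter. The WT mice carry neither transgene. The labels do not give the number of transgene copies, the insertion site, whether the animals were hemizygous, or their sex. About 165 islets per mouse were used, so each library mixes all cells of the islet and whatever was isolated with it.

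IAPP, also called amylin, is a small peptide hormone that beta cells store in the insulin granule and release together with insulin. Human IAPP can form amyloid, whereas the rodent peptide differs in a stretch of residues and does not. A mature beta cell is recognised by very high insulin expression, by transcription factors such as Mafa, Pdx1 and Nkx6-1, and by the machinery that couples glucose uptake to closure of the ATP-sensitive potassium (KATP) channel and to granule release. Ins1, Ins2, Gcg, Sst and Ppy, the hormone genes that define beta, alpha, delta and PP cells, were all at high levels in all 12 libraries.

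Library totals were 144291287 to 166233667 counts in WT and 127598668 to 157511264 in rIAPP, with 1 rIAPP library above the WT median (exact two-sided permutation p = 0.0152). The 32 markers of acinar cells, the digestive enzyme cells of the exocrine pancreas, made up 0.120% to 0.509% of counts in WT (median 0.241%) and 0.595% to 2.44% in rIAPP (median 1.28%), without overlap (exact two-sided permutation p = 0.00217, the lowest value possible for this number of libraries, and 0.00505 adjusted over 7 shares). Ins1 and Ins2 together took 8.92% to 10.2% in WT and 4.18% to 6.21% in rIAPP (exact p = 0.00217, adjusted 0.00505). Rn18s-rs5, an entry related to ribosomal RNA that depletion should remove, took 0.0178% to 0.0431% in WT and 0.0681% to 0.239% in rIAPP (exact p = 0.00217, adjusted 0.00505). Mitochondrially encoded genes (median 3.15% in WT and 2.40% in rIAPP, exact p = 0.0519, adjusted 0.0727), the glucagon gene Gcg (exact p = 0.336, adjusted 0.391) and the abundant RNA Rn7s1 (exact p = 0.628) did not pass. Each of these measures sits beside every gene result that follows, and their part in those results was not tested except where an acinar score was added to the fit.

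Of 20244 genes tested, 5417 (26.8%) differed between rIAPP and WT islets at an edgeR Benjamini-Hochberg adjusted p under 0.05, hereafter called genes. They were 2860 higher genes (14.1%) and 2557 lower genes (12.6%), of which 825 higher and 508 lower genes changed at least 2-fold. The 6 rIAPP libraries lay all above or all below the 6 WT libraries for 3012 genes (14.9%). The median log2 fold change of all genes tested was -0.01. Scaling by library totals alone moved this median to 0.10 and the calls to 4554 higher and 1404 lower, so that 76.4% of calls were higher in place of 52.8%. When the acinar score, the mean log2 CPM of the acinar markers, was added as a covariate, 1225 genes were called higher and 938 lower. The acinar share of counts, given above, does not overlap between WT and rIAPP, so the covariate and the genotype cannot be fully told apart.

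**Figure D1:**
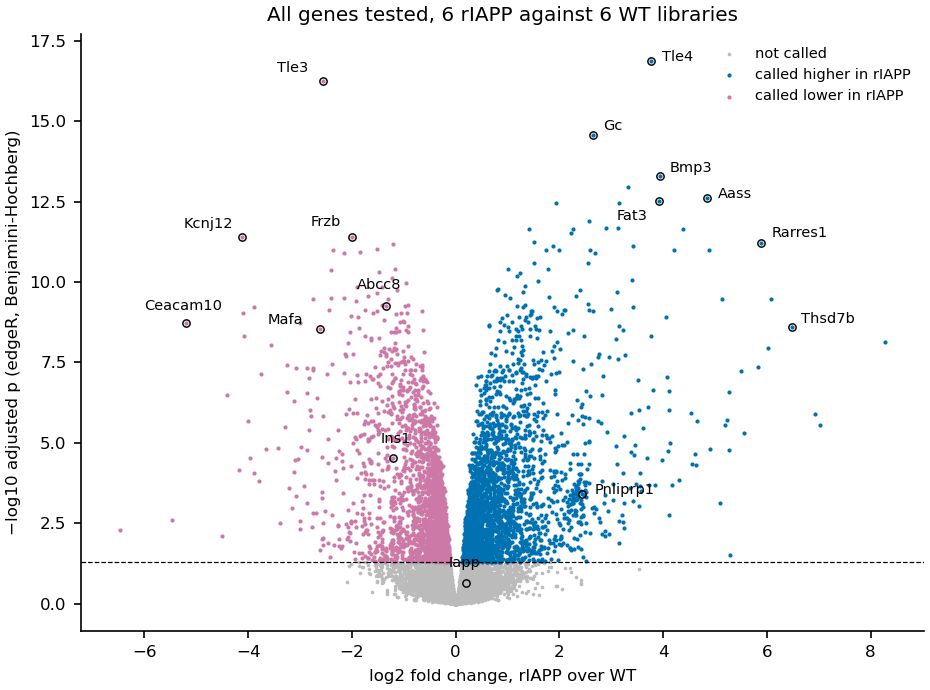
Each point is 1 of 20244 genes, with the log2 fold change of rIAPP over WT on the horizontal axis and -log10 of the edgeR adjusted p on the vertical axis, and the dashed line marks an adjusted p of 0.05. Tle4, on the right, and Tle3, on the left, stand highest on the vertical axis, and Iapp lies below the dashed line.

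Insulin messages fell while Iapp itself did not pass. Values after a gene name give its log2 fold change of rIAPP over WT (log2FC) ± its standard error and the edgeR adjusted p over all genes, and levels are in counts per 1000000 counts (CPM). Iapp (chromosome 6, 142298423 to 142303961, plus strand of GRCm38) was between 25590.5 and 40079 CPM in WT libraries (median 33819) and between 32829.9 and 43833 in rIAPP libraries (median 39114), with overlapping ranges (log2 fold change 0.19 ± 0.11, 95% interval -0.04 to 0.43, edgeR adjusted p = 0.234). Under scaling by library totals alone the same difference passed (0.32, edgeR adjusted p = 0.0161), and as a share of counts Iapp was 2.47% to 3.65% in WT and 3.46% to 4.57% in rIAPP (exact p = 0.00649, adjusted 0.0114). The hIAPP libraries held 20876 to 30706 CPM (median 24436), and rIAPP lay above them (log2 difference 0.61, edgeR adjusted p = 3.52e-04). The labels do not describe the transgene's transcript, so counts from it and from the mouse's own Iapp gene could not be told apart.

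Ins1 (chromosome 19, 52264297 to 52265476, plus strand) was between 41273 and 48127 CPM in WT libraries (median 43206) and between 14049 and 25358 in rIAPP libraries (median 17433). Every rIAPP library lay below every WT library (log2FC -1.21 ± 0.18, edgeR adjusted p = 2.93e-05, 2.31-fold lower). Ins2 was 53358 to 64284 CPM in WT (median 55257) and 25617 to 36274 in rIAPP (median 30733), again without overlap (log2FC -0.87 ± 0.14, edgeR adjusted p = 6.77e-05). Under the acinar score Ins1 still passed (-0.91, edgeR adjusted p = 0.0355) and Ins2 did not (-0.58, edgeR adjusted p = 0.0807). These 2 genes are near-identical copies, so how shared reads were assigned affects each of them. In bulk islets, fewer beta cells and less RNA per beta cell cannot be told apart. In hIAPP islets Ins1 stood at a median of 37985 CPM, and rIAPP was lower than hIAPP for Ins1 (-0.83, edgeR adjusted p = 0.00133) and Ins2 (-0.42, edgeR adjusted p = 0.0262). Of the other hormones, Gcg (0.04 ± 0.13, edgeR adjusted p = 0.885), Sst (-0.20 ± 0.12, 0.236) and Ppy (0.07 ± 0.13, 0.764) overlapped between the genotypes and did not pass.

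The Ins1 promoter is shown because Ins1 had the larger decrease of the insulin genes and because several factors known to act on it are described next. The 250 bases before its start (RefSeq, GRCm38.p6, chr19:52264047-52264296, plus strand) hold the insulin E box GCCATCTG, in capitals, which NeuroD1 is known to bind together with a partner protein. The E box begins 86 bases before the start. On either strand it is present in the windows, which also hold 50 bases after the start, of 1.25% of 13224 tested genes that have one.
Ins1: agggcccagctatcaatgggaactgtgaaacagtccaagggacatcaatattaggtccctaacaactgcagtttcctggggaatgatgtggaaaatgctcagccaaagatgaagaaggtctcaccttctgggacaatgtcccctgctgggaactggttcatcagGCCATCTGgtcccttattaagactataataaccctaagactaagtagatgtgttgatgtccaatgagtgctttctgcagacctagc

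**Figure D2:**
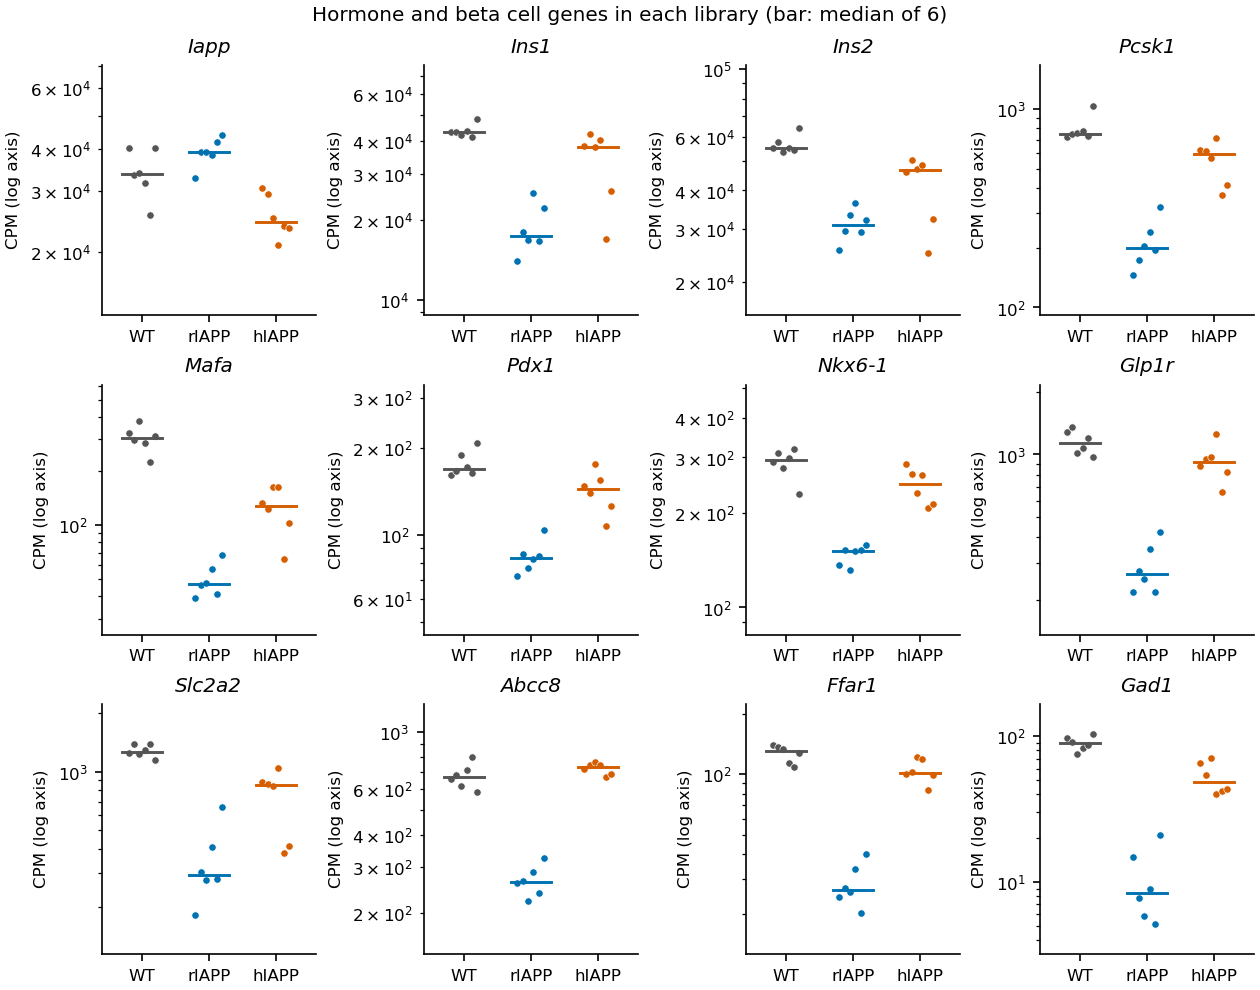
Each point is 1 library, bars are medians of 6, and the vertical axis of each panel is CPM on a log axis. In the panels for Ins1, Ins2, Pcsk1, Mafa, Pdx1, Nkx6-1, Glp1r, Slc2a2, Abcc8, Ffar1 and Gad1 all rIAPP points lie below all WT points, and in the Iapp panel the 2 groups overlap.

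Of 11 prohormone processing genes, 4 fell and 2 rose (2 and 1 with the acinar score, 2 and 4 with scaling by library totals alone). Gene lists here and below were chosen with earlier results of these data known, and some share members, so their counts are descriptions. Over all genes tested 12.6% fell and 14.1% rose, which are the shares to set beside each count. Pcsk1 encodes the convertase that makes the first cuts in proinsulin and also acts on proIAPP. It was between 719.7 and 1038 CPM in WT libraries (median 752) and between 146 and 320.2 in rIAPP libraries (median 199), with no overlap (log2FC -1.90 ± 0.18, edgeR adjusted p = 7.90e-08). Pcsk2, the second convertase, was 3750.1 to 4461 CPM in WT (median 3905) and 2130.2 to 3102 in rIAPP (median 2515) (log2FC -0.66 ± 0.09, edgeR adjusted p = 8.69e-06). Its ranges did not overlap either, and the convertase inhibitor gene Pcsk1n fell too (log2FC -0.34 ± 0.10, edgeR adjusted p = 0.0172). Cpe, the carboxypeptidase that trims the cut peptides, did not pass (-0.05 ± 0.10, adjusted p = 0.802). Among 19 granins and granule proteins 10 fell and 2 rose (4 and 2 with the acinar score, 7 and 4 with scaling by library totals alone), including the granule zinc transporter gene Slc30a8 (log2FC -1.23 ± 0.16, edgeR adjusted p = 6.40e-06), the granin Scg3 (log2FC -0.73 ± 0.10, edgeR adjusted p = 9.55e-06) and the granin-like peptide gene Vgf (log2FC -0.92 ± 0.17, edgeR adjusted p = 3.22e-04). Vgf moved the other way in hIAPP islets (1.34, edgeR adjusted p = 2.18e-05), and rIAPP and hIAPP differed (-2.27, edgeR adjusted p = 5.72e-09). Pcsk1n and Vgf no longer passed with the acinar score.

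Beta cell transcription factors fell in 13 of 25 cases and rose in 3, where 12.6% of all genes tested fell and 14.1% rose (8 and 2 with the acinar score). Mafa (chromosome 15, 75745490 to 75748228, minus strand), the insulin activator that marks the mature beta cell, was between 224 and 379 CPM in WT libraries (median 307) and between 39.0 and 67.5 in rIAPP libraries (median 46.9). The highest rIAPP library was more than 3 times below the lowest WT library (log2FC -2.62 ± 0.19, edgeR adjusted p = 2.79e-09, 6.14-fold lower). In hIAPP islets Mafa held 64.7 to 164 CPM (median 128), also below WT (-1.29, edgeR adjusted p = 8.61e-05), and rIAPP was lower still (-1.33, edgeR adjusted p = 1.51e-05). Pdx1, needed for pancreas formation and insulin transcription, was 161 to 208 CPM in WT (median 169) and 72.03 to 104 in rIAPP (median 83.3). Nkx6-1, which keeps beta cell identity, was 229 to 319 CPM in WT (median 294) and 131 to 158 in rIAPP (median 152). Neither gene's groups overlapped (log2FC -1.07 ± 0.11, edgeR adjusted p = 1.45e-07; for Nkx6-1 log2FC -0.97 ± 0.09, edgeR adjusted p = 5.49e-08). Mnx1, a homeobox gene of the beta lineage, fell as well (log2FC -1.29 ± 0.10, edgeR adjusted p = 1.20e-08). Smaller decreases passed for Nkx2-2 (-0.32 ± 0.05), Pax6 (-0.30 ± 0.06), Isl1 (-0.27 ± 0.06) and Neurod1 (-0.42 ± 0.10), factors shared by several islet cell types, and with the acinar score the last 3 of these no longer passed. The estrogen-related receptor gene Esrrg rose (log2FC 1.02 ± 0.12, edgeR adjusted p = 1.24e-06), as did Rfx3 (log2FC 0.42 ± 0.07, edgeR adjusted p = 5.86e-05) and, except with the acinar score, Hnf4a (log2FC 0.36 ± 0.08, edgeR adjusted p = 0.00147). Rfx6 did not pass (0.06 ± 0.05, adjusted p = 0.494).

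Genes tied to beta cell maturity fell in 10 of 18 cases and rose in 3, with a median log2 fold change of -1.24 against -0.01 for all genes tested. Many of them come on as beta cells gain glucose responsiveness after birth. The list also holds Cd81, described in immature beta cells, so its members do not all mark the same state. The number that fell was 10 as well with the acinar score and without each library in turn. Each of the 10 fell at least 2-fold, and several of them, such as Mafa and G6pc2, are also counted on other lists. Glp1r, the receptor for the incretin GLP-1, was between 977 and 1353 CPM in WT libraries (median 1139) and between 217 and 424 in rIAPP libraries (median 265). The groups lay far apart (log2FC -1.99 ± 0.17, edgeR adjusted p = 1.71e-08), and hIAPP at a median of 918 CPM did not pass against WT (-0.32, edgeR adjusted p = 0.204). Trpm5, a calcium-activated cation channel gene, was 149 to 188 CPM in WT (median 157) and 18.5 to 77.4 in rIAPP (median 23.6), with rIAPP replicate 6 the highest of its group (log2FC -2.26 ± 0.28, edgeR adjusted p = 3.95e-06). Nnat, an imprinted gene whose small membrane protein acts in insulin processing, was 142 to 354 CPM in WT (median 185) and 18.9 to 37.2 in rIAPP (median 28.1) (log2FC -2.87 ± 0.26, edgeR adjusted p = 4.56e-08). Tmem215 fell to a median of 70.1 CPM from 323 (log2FC -1.97 ± 0.22, edgeR adjusted p = 1.15e-06), and Sytl4, which encodes the granule docking protein granuphilin, fell too (log2FC -1.65 ± 0.16, edgeR adjusted p = 8.35e-08). Ucn3, a classic marker of late maturation named here after its values were seen, was 297 to 359 CPM in WT (median 320.2) and 102 to 221 in rIAPP (median 116) (log2FC -1.25 ± 0.16, edgeR adjusted p = 6.06e-06). The members that rose were Cd81 (log2FC 1.23 ± 0.09, edgeR adjusted p = 4.65e-09), a surface protein described in immature beta cells, Esrrg, given above, and Rgs4 (log2FC 0.28 ± 0.08, edgeR adjusted p = 0.00868), a regulator of G protein signalling that did not pass with the acinar score. Of the lower genes described here, Nnat (-1.61, edgeR adjusted p = 1.68e-04), Trpm5 (-0.95, edgeR adjusted p = 0.0223), Tmem215 (-0.75, edgeR adjusted p = 0.0240) and Ucn3 (-0.51, edgeR adjusted p = 0.0365) were also lower in hIAPP against WT. Glp1r, as given above, and Sytl4 (-0.26, edgeR adjusted p = 0.282) did not pass there.

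In the path from glucose to membrane potential 11 of 22 genes fell and 4 rose (7 and 1 with the acinar score). Slc2a2, the GLUT2 glucose transporter gene, was between 1143 and 1389 CPM in WT libraries (median 1263) and between 183 and 656 in rIAPP libraries (median 291). The ranges did not overlap, and rIAPP replicate 6 was the highest of its group, as for Tmem215 and G6pc2 (log2FC -1.86 ± 0.27, edgeR adjusted p = 2.03e-05). In hIAPP against WT Slc2a2 was lower too (-0.79, edgeR adjusted p = 0.0433). Abcc8, the sulfonylurea receptor subunit of the KATP channel, was 586 to 799 CPM in WT (median 669) and 221 to 327 in rIAPP (median 263) (log2FC -1.34 ± 0.09, edgeR adjusted p = 5.41e-10). Its pore subunit gene Kcnj11 was 86.2 to 103 CPM in WT (median 93.0) and 42.7 to 62.6 in rIAPP (median 57.1) (log2FC -0.78 ± 0.10, edgeR adjusted p = 3.99e-06). Both subunits were thus lower without overlap, whereas hIAPP islets held medians of 731 and 97.8 CPM, and rIAPP differed from hIAPP for both (edgeR adjusted p = 2.20e-10 and 4.13e-06). Decreases were also found for Hadh (log2FC -1.41 ± 0.13, edgeR adjusted p = 4.64e-08), a brake on amino acid-stimulated secretion, for the pyruvate carboxylase gene Pcx (log2FC -1.24 ± 0.11, edgeR adjusted p = 3.98e-08) and for the glucose-6-phosphatase gene G6pc2 (log2FC -1.33 ± 0.21, edgeR adjusted p = 6.29e-05). Kcnj8, the KATP pore gene of vessel-wall cells, rose (log2FC 1.69 ± 0.14, edgeR adjusted p = 1.49e-08), and it is also on the list of pericyte markers.

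Receptors for hormones and nutrients fell in 16 of 40 cases and rose in 9 (11 and 4 with the acinar score). Ffar1, the long-chain fatty acid receptor gene of beta cells, was between 109 and 139.8 CPM in WT libraries (median 131) and between 20.3 and 40.0 in rIAPP libraries (median 26.5). Its chromosomal neighbour Ffar3, for short-chain fatty acids, was 7.23 to 10.1 CPM in WT (median 9.57) and 1.17 to 2.21 in rIAPP (median 1.67). Both fell without overlap (log2FC -2.15 ± 0.13, edgeR adjusted p = 3.20e-10; for Ffar3 log2FC -2.40 ± 0.15, edgeR adjusted p = 3.20e-10). The inhibitory receptor genes Adora1 for adenosine (log2FC -1.88 ± 0.13, edgeR adjusted p = 1.26e-09), Galr1 for galanin (log2FC -1.63 ± 0.13, edgeR adjusted p = 5.38e-09) and Adra2a for adrenaline (log2FC -1.16 ± 0.09, edgeR adjusted p = 1.20e-08) fell along with the stimulatory Glp1r. Among receptors that rose, the dopamine receptor gene Drd2 was 0.0503 to 0.132 CPM in WT (median 0.0926) and 0.959 to 1.17 in rIAPP (median 1.06), a large difference at a low level (log2FC 3.53 ± 0.40, edgeR adjusted p = 9.33e-07). The leptin receptor gene Lepr was 8.71 to 11.4 CPM in WT (median 10.9) and 17.5 to 22.3 in rIAPP (median 18.4) (log2FC 0.87 ± 0.11, edgeR adjusted p = 2.72e-06). Both were above hIAPP as well (for Drd2 3.80, edgeR adjusted p = 4.87e-07; for Lepr 1.23, edgeR adjusted p = 3.22e-08). The somatostatin receptor gene Sstr1 rose (log2FC 2.36 ± 0.28, edgeR adjusted p = 1.91e-06), as did the cholecystokinin receptor gene Cckar (log2FC 2.51 ± 0.43, edgeR adjusted p = 1.69e-04), which acinar cells also express and which no longer passed with the acinar score.

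Exocytosis genes fell in 12 of 36 cases and rose in 1 (8 and 1 with the acinar score, 9 and 4 with scaling by library totals alone). Cadps, which primes dense-core granules for release, was between 161 and 177 CPM in WT libraries (median 170.2) and between 70.9 and 91.4 in rIAPP libraries (median 79.9). Its relative Cadps2 was 12.8 to 14.1 CPM in WT (median 13.6) and 22.7 to 24.8 in rIAPP (median 23.7). The 2 paralogs thus moved in opposite directions, each without overlap (log2FC -1.08 ± 0.08, edgeR adjusted p = 1.79e-09; for Cadps2 log2FC 0.81 ± 0.05, edgeR adjusted p = 1.69e-10). Syt14, of the synaptotagmin family, fell (log2FC -0.64 ± 0.06, edgeR adjusted p = 1.67e-07), as did the active-zone gene Rims2 (log2FC -0.29 ± 0.05, edgeR adjusted p = 5.86e-05). Ion channel and pump genes were split, with 12 of 37 lower and 9 higher (8 and 5 with the acinar score). The calcium pumps of the endoplasmic reticulum Atp2a2 (log2FC -0.76 ± 0.08, edgeR adjusted p = 4.38e-07) and Atp2a3 (log2FC -0.85 ± 0.08, edgeR adjusted p = 5.28e-08) fell, and the calcium release channel gene Ryr2 rose (log2FC 1.80 ± 0.24, edgeR adjusted p = 7.05e-06) from 0.831 CPM in WT and 2.72 in rIAPP at the median. The potassium channel genes Kcnh6 (log2FC 0.91 ± 0.10, edgeR adjusted p = 7.25e-07) and Kcnk16 (log2FC 0.67 ± 0.09, edgeR adjusted p = 1.62e-05) rose.

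Of 15 serotonin and neuroendocrine genes 4 fell and 2 rose. Gad1, which makes the inhibitory transmitter GABA that beta cells release, was between 75.7 and 104 CPM in WT libraries (median 89.2) and between 5.11 and 20.9 in rIAPP libraries (median 8.37). The highest rIAPP library, replicate 6, lay more than 3 times below the lowest WT library (log2FC -3.09 ± 0.28, edgeR adjusted p = 4.57e-08). Enzymes of monoamine metabolism fell too, the degrading Maob (log2FC -1.88 ± 0.18, edgeR adjusted p = 1.32e-07), the dopamine-forming Th (log2FC -1.04 ± 0.14, edgeR adjusted p = 6.91e-06) and Ddc (log2FC -1.004 ± 0.15, edgeR adjusted p = 2.66e-05). All 4 of these genes also passed with the acinar score.

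Genes of immature or dedifferentiated beta cells rose in 7 of 18 cases and fell in 1 (5 and 1 with the acinar score). Gc encodes the vitamin D-binding protein and is normally an alpha cell gene, so it is also on the alpha cell list. It was between 59.5 and 71.3 CPM in WT libraries (median 65.9) and between 367 and 472 in rIAPP libraries (median 408.1), and its groups were more than 5 times apart (log2FC 2.65 ± 0.08, edgeR adjusted p = 2.59e-15). Serpina7, the thyroxine-binding globulin gene, was 3.44 to 6.01 CPM in WT (median 5.81) and 44.5 to 72.8 in rIAPP (median 56.5) (log2FC 3.42 ± 0.17, edgeR adjusted p = 7.40e-12). Aldh1a3, a retinaldehyde dehydrogenase gene used as a marker of failing beta cells, was 2.04 to 5.32 CPM in WT (median 3.002) and 18.8 to 44.8 in rIAPP (median 32.6) (log2FC 3.27 ± 0.28, edgeR adjusted p = 1.87e-08). Aldh1a3 was also high in hIAPP islets, at 22.3 to 52.9 CPM (median 36.6), and rIAPP minus hIAPP did not pass (-0.19, edgeR adjusted p = 0.615). By contrast, the endocrine progenitor factor Neurog3 was 1.58 to 3.04 CPM in WT (median 2.18) and 6.99 to 10.9 in rIAPP (median 9.23), and its hIAPP median was 1.77 CPM (log2FC 1.99 ± 0.18, edgeR adjusted p = 6.46e-08; against hIAPP 2.35, edgeR adjusted p = 8.67e-09). Fev, which follows Neurog3 in development, rose too (log2FC 1.42 ± 0.18, edgeR adjusted p = 5.62e-06). Npy, a peptide gene of young beta cells, moved against the list, at 30.5 to 58.0 CPM in WT (median 42.4) and 7.38 to 14.0 in rIAPP (median 9.92) (log2FC -2.04 ± 0.15, edgeR adjusted p = 3.48e-09). Disallowed genes, which beta cells normally keep silent, rose in 13 of 27 cases and fell in 2, but with the acinar score 2 rose and 1 fell. The called members include Pdgfra (log2FC 1.47 ± 0.21, edgeR adjusted p = 1.53e-05), which is also on the fibroblast list, Igfbp4 (log2FC 0.90 ± 0.12, edgeR adjusted p = 6.87e-06) and Fcgrt (log2FC 0.51 ± 0.09, edgeR adjusted p = 1.31e-04), the last not with the acinar score. The 2 textbook members Ldha (0.17 ± 0.09, adjusted p = 0.178, not passing) and Slc16a1 (-0.60 ± 0.15, adjusted p = 0.00408, lower) did not rise.

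Markers of the other endocrine cells did not move together. Of 19 alpha cell markers 4 rose and 5 fell (median -0.08, 0.04 with scaling by library totals alone). The amino acid transporter genes Slc38a5 and Slc7a2 went opposite ways, Slc38a5 at 4.42 to 6.62 CPM in WT (median 5.98) and 27.3 to 41.3 in rIAPP (median 33.7) (log2FC 2.58 ± 0.13, edgeR adjusted p = 9.82e-12) and Slc7a2 at 269.9 to 390.3 CPM in WT (median 301) and 94.4 to 168 in rIAPP (median 124) (log2FC -1.30 ± 0.11, edgeR adjusted p = 2.95e-08). The alpha cell factor Irx2 did not pass (-0.14 ± 0.09, adjusted p = 0.260). Of 12 delta cell markers 4 fell and 1 rose (2 and 1 with the acinar score, 3 and 1 with scaling by library totals alone). The Wnt antagonist gene Frzb was 196 to 256 CPM in WT (median 219) and 52.7 to 62.2 in rIAPP (median 53.9) (log2FC -2.0001 ± 0.09, edgeR adjusted p = 3.87e-12), while the delta cell factor Hhex (-0.34 ± 0.13, adjusted p = 0.0552) did not pass. Of 10 PP and epsilon cell markers 1 rose, Tspan8 (log2FC 1.44 ± 0.10, edgeR adjusted p = 8.19e-10).

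The smallest p values of all genes tested belonged to a pair of related corepressors, named here after their values were seen. Tle3 and Tle4 belong to the Groucho family, whose proteins are recruited by DNA-binding factors to silence genes. Tle4 (chromosome 19, 14448150 to 14598051, minus strand) was between 7.43 and 9.61 CPM in WT libraries (median 8.80) and between 102 and 133 in rIAPP libraries (median 118). Tle3 (chromosome 9, 61372366 to 61418497, plus strand) was 90.8 to 113 CPM in WT (median 98.9) and 16.2 to 17.7 in rIAPP (median 16.7). One member thus rose 13.6-fold and the other fell 5.91-fold, without overlap (log2FC 3.77 ± 0.08, edgeR adjusted p = 1.33e-17; for Tle3 log2FC -2.56 ± 0.06, edgeR adjusted p = 5.40e-17). In hIAPP islets both stayed in or near the WT range, at medians of 8.49 and 106 CPM, and rIAPP differed from hIAPP for both (edgeR adjusted p = 5.45e-18 and 2.08e-17). The log2 fold changes with the acinar score were 3.88 and -2.56.

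Among named genes with a mean of at least 1 CPM in rIAPP, the 15 largest increases spanned log2 fold changes of 3.80 to 6.49. A gene could pass this filter through its rIAPP level alone, so low WT levels and large changes partly follow from the choice. Thsd7b, a thrombospondin-domain protein gene, was 0.00659 to 0.107 CPM in WT (median 0.0444) and 3.35 to 4.92 in rIAPP (median 4.33). C1ql3, a secreted synapse organiser gene, was 0.0654 to 0.127 CPM in WT (median 0.0847) and 3.83 to 8.05 in rIAPP (median 6.04). WT levels were close to nothing and every rIAPP library exceeded 3 CPM (log2FC 6.49 ± 0.48, edgeR adjusted p = 2.54e-09; for C1ql3 log2FC 6.08 ± 0.38, edgeR adjusted p = 3.44e-10). Lrp1b, of the lipoprotein receptor family (log2FC 6.03 ± 0.49, edgeR adjusted p = 1.11e-08), Gabra3, a GABA receptor subunit gene (log2FC 5.13 ± 0.33, edgeR adjusted p = 3.44e-10), Opcml, a neuronal adhesion gene (log2FC 4.37 ± 0.20, edgeR adjusted p = 2.21e-12), and Rarres1, named for its response to retinoic acid (log2FC 5.89 ± 0.28, edgeR adjusted p = 6.04e-12), rose from WT levels below 1 CPM in every library. Among the 15, 3 started from a WT median above 1 CPM. Aass (chromosome 6, 23072173 to 23132986, minus strand), the first enzyme of lysine breakdown, was between 1.71 and 3.14 CPM in WT libraries (median 2.44) and between 46.4 and 90.1 in rIAPP libraries (median 72.8). Bmp3 (chromosome 5, 98854415 to 98884396, plus strand), a secreted BMP family member that antagonises other BMPs, was 5.65 to 8.11 CPM in WT (median 7.03) and 82.8 to 129.8 in rIAPP (median 110.3). Fat3, a giant protocadherin gene, was 1.41 to 2.57 CPM in WT (median 2.14) and 26.4 to 39.6 in rIAPP (median 29.2). In each of these the lowest rIAPP library was over 10 times the highest WT library (log2FC 4.85 ± 0.18, edgeR adjusted p = 2.40e-13; Bmp3 log2FC 3.93 ± 0.13, edgeR adjusted p = 5.15e-14; Fat3 log2FC 3.92 ± 0.15, edgeR adjusted p = 3.08e-13). Both comparisons share the WT libraries. In hIAPP against WT Aass (1.94, edgeR adjusted p = 2.14e-07) and Rarres1 (1.19, edgeR adjusted p = 0.00688) were also higher. Bmp3 (-0.04, edgeR adjusted p = 0.874) and Fat3 (-0.002, edgeR adjusted p = 0.996) did not pass there.

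The 15 largest decreases, among genes with a mean of at least 1 CPM in WT, spanned log2 fold changes of -5.20 to -2.78. A gene could pass this filter through its WT level alone, so low rIAPP levels and large changes again partly follow from the choice. In hIAPP against WT Myo3a (-1.10, edgeR adjusted p = 0.00416), Plut (-1.12, edgeR adjusted p = 0.00633) and Gad1 (-0.77, edgeR adjusted p = 0.0452) were also lower. Kcnj12 (-0.40, edgeR adjusted p = 0.106) and Kcng3 (-0.22, edgeR adjusted p = 0.659) did not pass there. Ceacam10, of a family with near-identical copies, was 0.947 to 1.39 CPM in WT (median 1.19) and 0 to 0.0533 in rIAPP (median 0.0387), close to undetected in rIAPP (log2FC -5.20 ± 0.37, edgeR adjusted p = 1.83e-09). Potassium channel genes were among the 15. Kcnj12, an inward rectifier, was between 9.31 and 12.9 CPM in WT libraries (median 11.6) and between 0.521 and 0.909 in rIAPP libraries (median 0.555). Kcng3, a modulatory subunit, was 4.56 to 13.1 CPM in WT (median 8.56) and 0.259 to 0.835 in rIAPP (median 0.459). For both the ranges were over 5 times apart (log2FC -4.13 ± 0.19, edgeR adjusted p = 3.87e-12; Kcng3 log2FC -4.08 ± 0.31, edgeR adjusted p = 4.77e-09). Myo3a, an unconventional myosin gene (log2FC -4.10 ± 0.28, edgeR adjusted p = 9.35e-10), Angptl7, a secreted angiopoietin-like gene (log2FC -3.56 ± 0.29, edgeR adjusted p = 9.22e-09), the zinc finger factor Ovol2 (log2FC -3.12 ± 0.34, edgeR adjusted p = 5.13e-07) and Kynu, an enzyme of tryptophan breakdown (log2FC -2.80 ± 0.31, edgeR adjusted p = 9.55e-07), were among the others, with Gad1 and Nnat given above. Plut, a noncoding RNA that lies antisense to Pdx1, was 8.40 to 12.6 CPM in WT (median 10.6) and 0.653 to 1.69 in rIAPP (median 1.005) (log2FC -3.24 ± 0.29, edgeR adjusted p = 3.80e-08), and since the strand setting of the counting is not given, its reads and those of Pdx1 may not be separated.

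**Figure D3:**
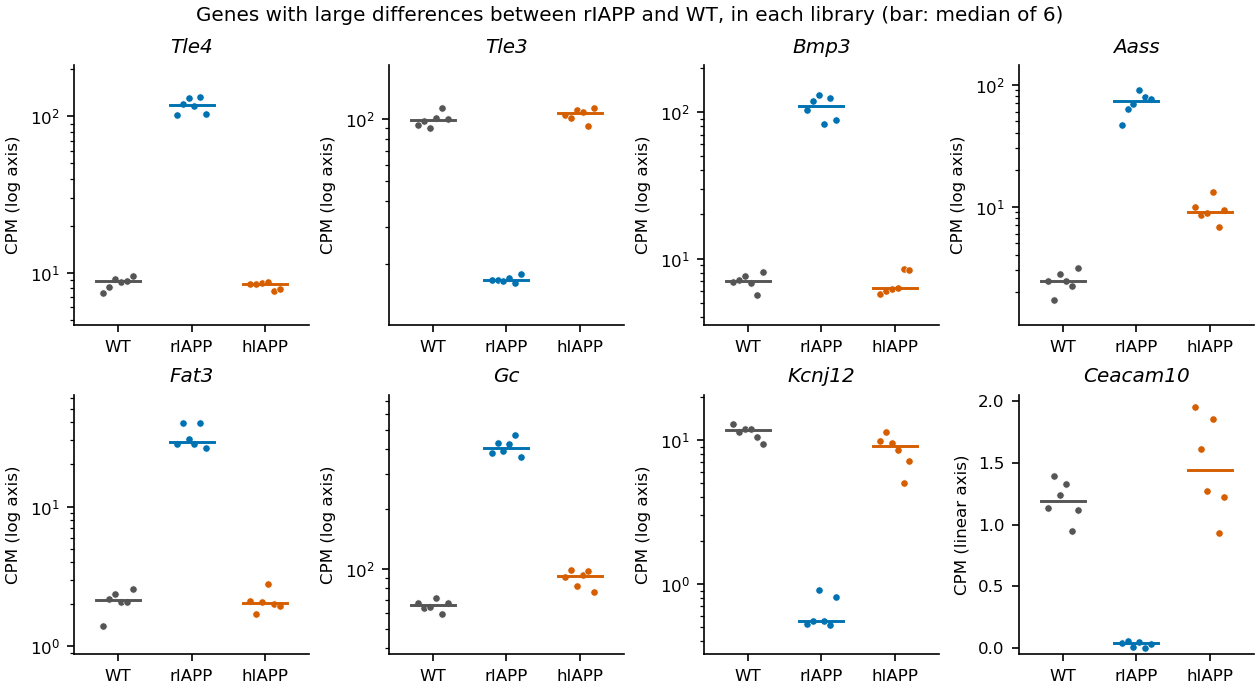
Each point is 1 library, bars are medians of 6, and the vertical axis is CPM, on a log axis except for Ceacam10, which has libraries at 0 and a linear axis. For Tle4, Tle3, Bmp3, Fat3 and Ceacam10 the hIAPP points lie with the WT points and the rIAPP points lie apart from both.

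Genes of the TGF-beta, BMP and activin pathway rose in 13 of 45 cases and fell in 7 (4 and 4 with the acinar score, 20 and 4 with scaling by library totals alone). Besides Bmp3, Inhba, which encodes the activin A chain, was 0.268 to 0.481 CPM in WT (median 0.367) and 1.33 to 2.19 in rIAPP (median 1.66) (log2FC 2.27 ± 0.20, edgeR adjusted p = 2.78e-08). Gdf10, the closest relative of Bmp3, was 6.31 to 11.6 CPM in WT (median 10.03) and 20.0 to 30.0 in rIAPP (median 22.6) (log2FC 1.30 ± 0.15, edgeR adjusted p = 1.02e-06). The receptor gene Acvr1c, which beta cells use for activin-like signals, was between 7.09 and 10.7 CPM in WT libraries (median 9.69) and between 1.85 and 2.81 in rIAPP libraries (median 2.05) (log2FC -2.08 ± 0.17, edgeR adjusted p = 7.65e-09). Of 20 genes for lysine and branched-chain amino acid breakdown 8 rose and 2 fell (4 and 1 with the acinar score). After Aass, the largest rise was in Bcat1, the cytosolic branched-chain aminotransferase gene, at 0.330 to 1.03 CPM in WT (median 0.507) and 6.01 to 8.93 in rIAPP (median 7.53) (log2FC 3.77 ± 0.29, edgeR adjusted p = 4.82e-09), while Bckdhb, of the mitochondrial branched-chain complex, fell (log2FC -0.61 ± 0.11, edgeR adjusted p = 2.02e-04). Axon guidance genes rose in 17 of 49 cases and fell in 8 (7 and 3 with the acinar score, 20 and 5 with scaling by library totals alone), led by the secreted Sema3c at 5.87 to 8.05 CPM in WT (median 7.10) and 20.3 to 29.1 in rIAPP (median 24.2) (log2FC 1.81 ± 0.14, edgeR adjusted p = 3.25e-09) and the netrin gene Ntn1 (log2FC 1.19 ± 0.15, edgeR adjusted p = 3.48e-06). The Slit receptor gene Robo1 (log2FC -0.95 ± 0.07, edgeR adjusted p = 2.98e-09) and its ligand gene Slit1 (log2FC -1.50 ± 0.19, edgeR adjusted p = 5.47e-06) fell.

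Targets of the ATF4 and CHOP factors, which cells switch on when translation is curbed by ER stress or amino acid shortage, rose in 25 of 30 cases, and 1, Stc2, fell. The median log2 fold change was 0.66, beside 0.85 in hIAPP against WT. In rIAPP against hIAPP 0 of the 30 were higher and 6 lower, where 2856 of all 20244 genes tested were higher and 2730 lower. Once the acinar score was added, 4 of the 30 rose and 1 fell in rIAPP against WT, at a median of 0.26. Sesn2, a stress-induced inhibitor of mTORC1, was between 22.2 and 26.4 CPM in WT libraries (median 23.9) and between 37.8 and 47.6 in rIAPP libraries (median 46.4) (log2FC 0.87 ± 0.10, edgeR adjusted p = 1.62e-06). The one-carbon enzyme gene Mthfd2 was 19.2 to 23.3 CPM in WT (median 20.6) and 36.1 to 42.7 in rIAPP (median 39.8) (log2FC 0.92 ± 0.13, edgeR adjusted p = 1.73e-05). Neither overlapped. Nupr1, a chromatin protein gene that acinar cells also induce, was 8.63 to 20.7 CPM in WT (median 15.4) and 52.0 to 123 in rIAPP (median 80.3) (log2FC 2.57 ± 0.34, edgeR adjusted p = 8.69e-06), and the cystine transporter gene Slc7a11 was 0.204 to 0.464 CPM in WT (median 0.294) and 0.671 to 2.06 in rIAPP (median 1.25) (log2FC 2.04 ± 0.28, edgeR adjusted p = 1.18e-05). The factors themselves, named after their values were seen, differed by small amounts. Atf4 was 149 CPM in WT and 172 in rIAPP at the median (log2FC 0.26 ± 0.08, edgeR adjusted p = 0.0197) and Ddit3, which encodes CHOP, 15.1 CPM in WT and 21.5 in rIAPP (log2FC 0.49 ± 0.17, edgeR adjusted p = 0.0329), both with overlapping ranges. Atf4 did not pass without rIAPP replicate 4 (0.0561), nor did Ddit3 without WT replicate 3 (0.0628), 4 (0.0712) or 6 (0.0758) or rIAPP replicate 1 (0.0591), 4 (0.0724) or 5 (0.0562), the values being edgeR adjusted p. In hIAPP islets Ddit3 and Trib3 stood higher than in rIAPP (rIAPP minus hIAPP for Ddit3 -0.87, edgeR adjusted p = 4.89e-04; for Trib3, a CHOP target chosen after its values were seen, -1.12, edgeR adjusted p = 0.00681). Stc2, a secreted glycoprotein gene, fell in rIAPP (log2FC -0.94 ± 0.17, edgeR adjusted p = 2.62e-04) and rose in hIAPP (0.87, edgeR adjusted p = 0.00147). With the acinar score Atf4, Ddit3, Trib3, Chac1, Fgf21 and Asns no longer passed, while Sesn2, Mthfd2, Nupr1 and Slc7a11 did.

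Promoter stretches are shown for 5 list members that rose, because they carry the same element at different places. The element TGATGNAA, in capitals, is the composite C/EBP and ATF half-site motif that ATF4 and its partners are known to bind, and it may lie on either strand. It was found on either strand in the windows of 9 of 26 list members with one (34.6%), where 2.88% of 13224 tested genes with a window and 4.51% of all 27025 windows hold it. Windows ran from 250 bases before to 50 after the RefSeq start on GRCm38.p6. The list was made of targets of these factors, so its higher share may follow from that choice and nothing is read from it. A match is a description of the letters and no evidence of binding.
Chac1 (chr2:119351033-119351072, plus strand): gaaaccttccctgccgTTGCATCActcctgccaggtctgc
Asns (chr6:7693210-7693248, minus strand): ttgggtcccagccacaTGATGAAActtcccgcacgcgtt
Slc7a11 (chr3:50443656-50443695, minus strand): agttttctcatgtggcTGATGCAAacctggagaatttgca
Fgf21 (chr7:45615606-45615645, minus strand): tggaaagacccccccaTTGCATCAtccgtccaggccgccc
Nupr1 (chr7:126625557-126625596, minus strand): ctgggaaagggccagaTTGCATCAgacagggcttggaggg

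These 5 genes rose from low or moderate levels. Chac1, which degrades glutathione, was 1.88 to 5.31 CPM in WT (median 3.30) and 5.67 to 14.0 in rIAPP (median 12.1) (log2FC 1.69 ± 0.34, edgeR adjusted p = 7.98e-04), and Fgf21, a stress hormone gene, was 0.0201 to 0.124 CPM in WT (median 0.0296) and 0.166 to 1.13 in rIAPP (median 0.368) (log2FC 3.56 ± 0.66, edgeR adjusted p = 3.10e-04). Asns, the asparagine synthetase gene, was 56.8 to 80.2 CPM in WT (median 77.8) and 93.5 to 106 in rIAPP (median 98.9), higher in all rIAPP libraries than in any WT library (log2FC 0.42 ± 0.10, edgeR adjusted p = 0.00284). Chac1, Fgf21 and Asns were chosen for showing after their values were seen. The element is also present before genes that did not pass, such as Pck2 (0.18 ± 0.08, adjusted p = 0.0894) and Vldlr (-0.20 ± 0.12, adjusted p = 0.238). ER chaperones and other unfolded protein response genes rose in 11 of 32 cases and fell in 4 (5 and 3 with the acinar score, 20 and 1 with scaling by library totals alone). Herpud1, which acts in ER-associated degradation, was 164 to 206 CPM in WT (median 174) and 256 to 363 in rIAPP (median 294) (log2FC 0.73 ± 0.09, edgeR adjusted p = 5.62e-06). Hspa5, which encodes the main ER chaperone BiP, did not pass (0.14 ± 0.07, adjusted p = 0.157), nor did Xbp1 (0.07 ± 0.07, adjusted p = 0.544). Cytosolic heat shock genes were called in 3 of 20 cases, a smaller share than the 26.8% of all genes tested, with 2 higher and 1 lower (2 and 0 with the acinar score, 3 and 0 with scaling by library totals alone).

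Of 20 cholesterol synthesis enzymes 3 fell and none rose, where 12.6% of all genes tested were lower. They include Mvk (log2FC -0.32 ± 0.11, edgeR adjusted p = 0.0376) and Lss (log2FC -0.23 ± 0.08, edgeR adjusted p = 0.0403). The number was 0 without WT replicate 2, rIAPP replicate 3 or rIAPP replicate 5, 1 without WT replicate 1, rIAPP replicate 1 or rIAPP replicate 6, and 0 with the acinar score. In the fit of all libraries 4 of the 20 were below 0.05 before adjustment, all of them lower. In hIAPP against WT the median of these 20 genes was -0.49, beside -0.11 in rIAPP against WT. The latter was 0.01 with scaling by library totals alone, under which 1 of the 20 rose and none fell. In rIAPP against hIAPP 14 of the 20 were higher, where 2856 of all 20244 genes tested were higher and 2730 lower. Sterol uptake and SREBP genes fell in 9 of 20 cases and rose in 2, including the master factor genes Srebf1 (log2FC -0.55 ± 0.10, edgeR adjusted p = 3.29e-04) and Srebf2 (log2FC -0.33 ± 0.10, edgeR adjusted p = 0.0118), and with the acinar score 2 fell and Srebf2 did not pass. With scaling by library totals alone 5 fell. Fatty acid synthesis and desaturation genes fell in 9 of 18 cases and rose in 2 (5 and 1 with the acinar score). Acaca, the rate-limiting carboxylase, was between 51.5 and 65.5 CPM in WT libraries (median 55.01) and between 35.5 and 44.2 in rIAPP libraries (median 39.3) (log2FC -0.53 ± 0.07, edgeR adjusted p = 1.46e-05). The desaturase gene Scd2 was 159 to 235 CPM in WT (median 196) and 100.1 to 137 in rIAPP (median 115) (log2FC -0.74 ± 0.11, edgeR adjusted p = 2.05e-05). Elovl7, an elongase gene, rose (log2FC 1.27 ± 0.11, edgeR adjusted p = 1.83e-08).

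Ribosomal protein genes rose in 35 of 77 cases with none lower by edgeR (0 lower before adjustment), but by little, at a median log2 fold change of 0.18 (19 higher with the acinar score, 67 with scaling by library totals alone, 24 to 41 without each library in turn). Rpl10a was among those of smallest p (log2FC 0.36 ± 0.06, edgeR adjusted p = 9.47e-05). Many of these genes have processed copies, which counting can split. Of 56 nuclear respiratory chain genes 2 fell and none rose by edgeR (7 lower and 1 higher before adjustment). The number lower was 8 without rIAPP replicate 4 and 0 with the acinar score, and scaling by library totals alone called 12 higher and 1 lower. Of 15 mitochondrially encoded genes, the ribosomal RNA genes mt-Rnr1 (log2FC -0.70 ± 0.16, edgeR adjusted p = 0.00231) and mt-Rnr2 (log2FC -0.65 ± 0.12, edgeR adjusted p = 2.59e-04) fell and 2 genes rose, mt-Atp6 among them (log2FC 1.18 ± 0.29, edgeR adjusted p = 0.00433). Over all genes tested 12.6% fell and 14.1% rose. None of the 15 rose once the acinar score was added, and 1 rose without WT replicates 1, 4 or 5 or rIAPP replicates 2, 3, 5 or 6. Antioxidant genes and metallothioneins fell in 6 of 22 cases and rose in 2 (4 and 1 with the acinar score, 3 and 6 with scaling by library totals alone). Nqo1, a quinone reductase gene and standard NRF2 target, was 2.06 to 4.88 CPM in WT (median 4.23) and 0.594 to 1.23 in rIAPP (median 0.907) (log2FC -2.05 ± 0.20, edgeR adjusted p = 1.26e-07). Mt1 was 165.6 to 354 CPM in WT (median 286) and 115 to 161 in rIAPP (median 146) (log2FC -0.95 ± 0.16, edgeR adjusted p = 1.13e-04), and its neighbour Mt2 fell too, though not with the acinar score (log2FC -0.83 ± 0.19, edgeR adjusted p = 0.00275). For Nqo1 and both metallothioneins rIAPP was also below hIAPP (edgeR adjusted p = 3.61e-08, 5.57e-06 and 1.31e-05).

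Clock genes fell in 9 of 18 cases and none rose by edgeR (0 before adjustment), at a median of -0.43 (2 lower with the acinar score, 4 with scaling by library totals alone). Per2, of the negative arm of the clock, was 16.8 to 39.4 CPM in WT (median 25.5) and 11.04 to 20.7 in rIAPP (median 13.1), with overlap (log2FC -0.84 ± 0.17, edgeR adjusted p = 9.71e-04), and Bhlhe41 (log2FC -0.43 ± 0.07, edgeR adjusted p = 1.14e-04) fell too. Per2 no longer passed with the acinar score. The time of day at which islets were taken is not given in the labels. Proliferation genes were called in 5 of 28 cases, a smaller share than the 26.8% of all genes tested, with 2 higher and 3 lower (0 and 1 with the acinar score, 3 and 1 with scaling by library totals alone). Ccnd2, the main D-type cyclin gene of beta cells, was between 676 and 886 CPM in WT libraries (median 753) and between 377 and 555 in rIAPP libraries (median 439), clear of overlap (log2FC -0.78 ± 0.09, edgeR adjusted p = 8.82e-07). Of 26 p53 target and apoptosis genes 9 rose and 2 fell (4 and 0 with the acinar score), including the survival genes Bcl2l1 (log2FC 0.45 ± 0.09, edgeR adjusted p = 7.50e-04) and Bcl2 (log2FC 0.61 ± 0.09, edgeR adjusted p = 2.62e-05) and the redox regulator gene Txnip (log2FC 0.44 ± 0.12, edgeR adjusted p = 0.00770). Among 30 immediate early genes 4 rose and 2 fell, where 14.1% of all genes tested rose and 12.6% fell (1 and 0 with the acinar score, 7 and 2 with scaling by library totals alone). Npas4, which depolarisation induces in beta cells, was 1.56 to 6.86 CPM in WT (median 4.65) and 0.327 to 1.66 in rIAPP (median 0.826), with overlap and not passing with the acinar score (log2FC -2.38 ± 0.52, edgeR adjusted p = 0.00170).

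Macrophage markers fell in 9 of 22 cases and rose in 1 (11 and 1 with the acinar score, 4 and 1 with scaling by library totals alone). The count was 4 to 7 when 1 library was left out, lowest without rIAPP replicate 5 (4) and 5 without WT replicate 2, WT replicate 6 or rIAPP replicate 1. C1qa, a complement component of resident macrophages, was between 54.9 and 63.7 CPM in WT libraries (median 59.5) and between 21.3 and 38.7 in rIAPP libraries (median 28.4). Its groups did not overlap (log2FC -1.01 ± 0.10, edgeR adjusted p = 1.77e-07). In hIAPP islets C1qa was above WT (0.56, edgeR adjusted p = 7.13e-04) and rIAPP lay below hIAPP (-1.56, edgeR adjusted p = 4.65e-10). Fcer1g, an Fc receptor chain gene, fell (log2FC -0.99 ± 0.13, edgeR adjusted p = 1.02e-05), and the mannose receptor gene Mrc1 rose (log2FC 0.81 ± 0.14, edgeR adjusted p = 1.25e-04). Lymphocyte markers were called in 3 of 11 cases, where 26.8% of all genes tested were called, at a median log2 fold change of -0.07. The B cell genes Cd22 (log2FC -1.30 ± 0.20, edgeR adjusted p = 5.87e-05) and Cd79a (log2FC -1.57 ± 0.27, edgeR adjusted p = 1.41e-04) were lower, the second not with the acinar score. Of the others 1 rose at least 2-fold and 8 did not pass, so the list did not move as a whole. In WT the mean of Cd79a was 15.7 CPM and that of Cd22 0.673 CPM, where all 11 markers summed to 18.0 CPM. Whether the Cd79a reads came from B cells was not tested. Interferon-response genes were split, 4 higher and 5 lower of 28, where 14.1% of all genes tested were higher and 12.6% lower (2 and 2 with the acinar score, 8 and 3 with scaling by library totals alone). Usp18, an interferon-induced deconjugating enzyme gene, was 19.3 to 26.1 CPM in WT and 7.36 to 10.2 in rIAPP (log2FC -1.42 ± 0.08, edgeR adjusted p = 1.38e-10).

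Acinar and stromal markers rose. Of 32 acinar markers 30 rose and none fell by edgeR (0 before adjustment), at a median log2 fold change of 2.27, and their summed level was 1238 to 5262 CPM in WT and 5569 to 24714 in rIAPP, without overlap. In hIAPP against WT the median of these markers was 1.86. In rIAPP against hIAPP 2 of the 32 were higher and 0 lower, where 2856 of all 20244 genes tested were higher and 2730 lower. Cela1, an elastase gene, was 42.6 to 154 CPM in WT (median 70.2) and 167 to 776 in rIAPP (median 428) (log2FC 2.39 ± 0.40, edgeR adjusted p = 1.29e-04), and the acinar factor Ptf1a rose from a very low level (log2FC 3.03 ± 0.53, edgeR adjusted p = 1.88e-04). Of 20 markers of pericytes, stellate cells and fibroblasts 15 rose and none fell (0 lower before adjustment, 6 higher with the acinar score), at a median of 0.82. Their summed level was 1155 to 1615 CPM in WT and 1919.9 to 3016 in rIAPP. The collagen gene Col1a1 was 10.8 to 25.5 CPM in WT (median 19.9) and 38.1 to 88.9 in rIAPP (median 50.4) (log2FC 1.58 ± 0.27, edgeR adjusted p = 1.49e-04). Of 20 endothelial markers 19 rose by small amounts (median 0.38, 3 with the acinar score), with Vwf, the von Willebrand factor gene, rising most among the 6 of smallest p (log2FC 1.17 ± 0.22, edgeR adjusted p = 4.29e-04). Ductal markers were mixed, 9 higher and 4 lower of 20 (4 and 0 with the acinar score, 10 and 2 with scaling by library totals alone). The tight junction gene Cldn4 was 20.3 to 29.3 CPM in WT (median 27.5) and 52.8 to 82.6 in rIAPP (median 75.9) (log2FC 1.49 ± 0.13, edgeR adjusted p = 2.60e-08), whereas the duct keratin gene Krt19 fell (log2FC -0.83 ± 0.18, edgeR adjusted p = 0.00122). Markers of these cells moved with the groups described above, and their part in those results was not tested beyond the acinar score. Under that score Cela1, Ptf1a, Col1a1, Vwf and Krt19 did not pass. Cela1 and Ptf1a are themselves part of the score, so for them this follows from how it was made.

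**Figure D4:**
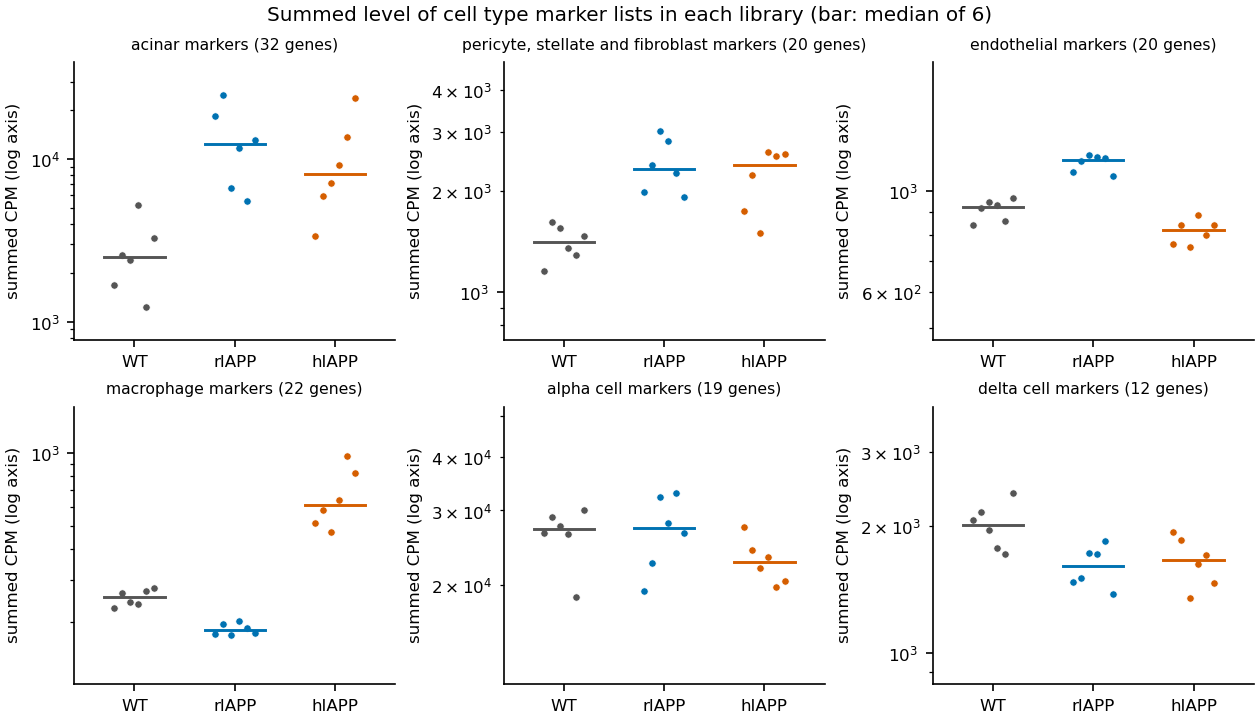
Each point is the summed CPM of a marker list in 1 library, on a log axis, and bars are medians of 6. The acinar sums of rIAPP lie above all WT sums, while the alpha cell sums of rIAPP and WT overlap.

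**Figure D5:**
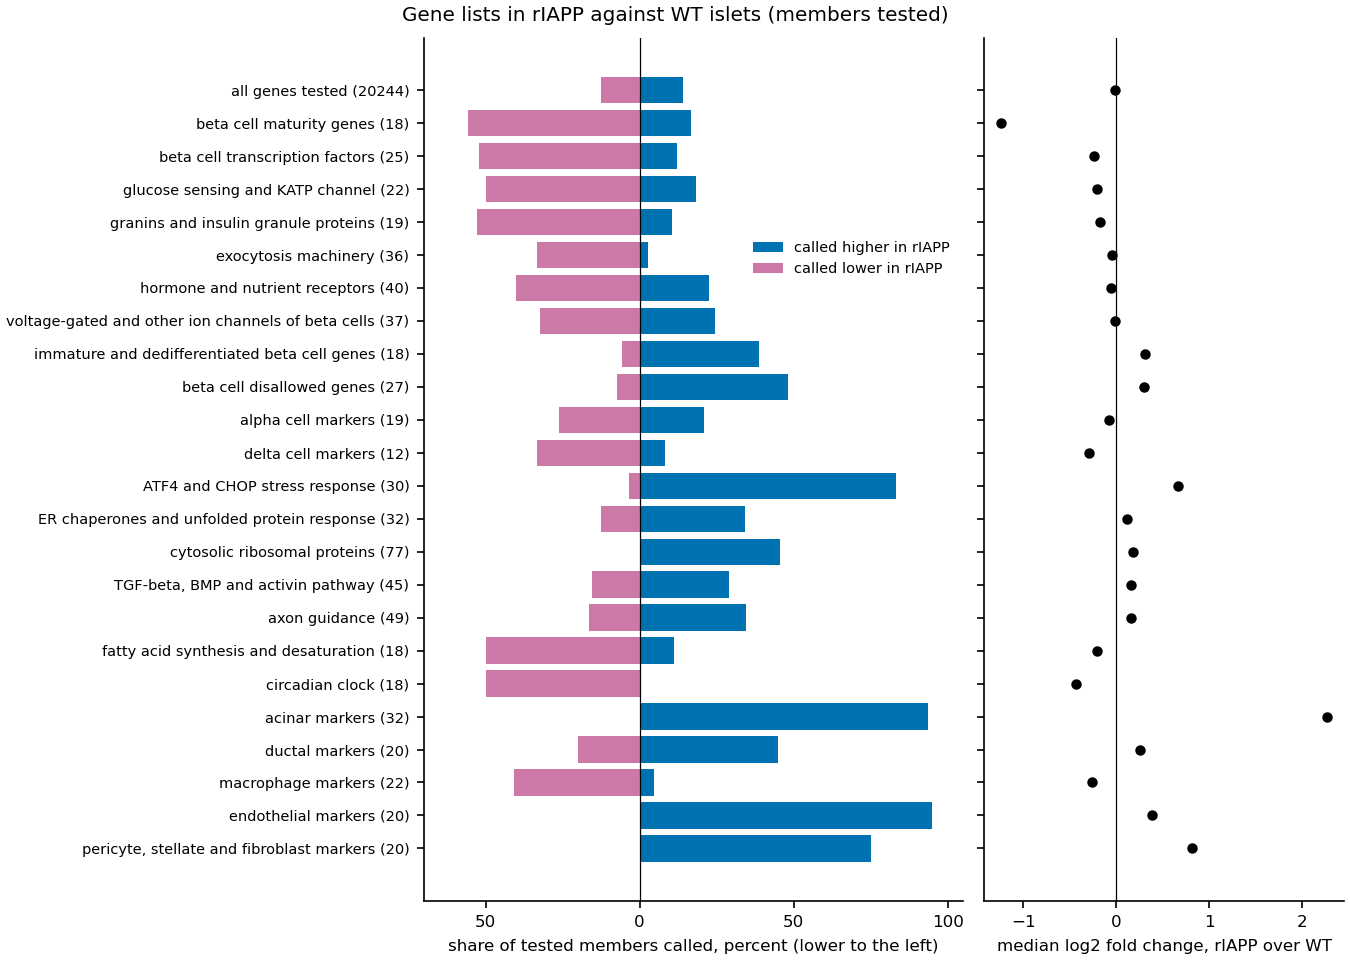
Bars give the share of tested members called higher (right) or lower (left) in rIAPP, with the number tested in brackets, and points give the median log2 fold change. The bar for all genes tested, 14.1% higher and 12.6% lower, is the background for the other bars. Lists share some members and were chosen with earlier results of these data known.

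Both transgenic comparisons share the WT libraries, and rIAPP minus WT and rIAPP minus hIAPP share the 6 rIAPP libraries. Of 143 genes named above that were called in rIAPP against WT, 114 passed in rIAPP minus hIAPP, where 27.6% of all genes tested passed. Since the genes were chosen on the same rIAPP libraries, this count is a description and nothing is read from it. Those that did not include Aldh1a3, Npy (-0.36, edgeR adjusted p = 0.0851), Neurod1 (-0.04, edgeR adjusted p = 0.818), Herpud1 (0.13, edgeR adjusted p = 0.339) and Sesn2 (0.11, edgeR adjusted p = 0.464). For these genes the values in rIAPP and hIAPP islets did not differ beyond their spread, which does not show that they are equal.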

How the data were processed

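Islet RNA of 18 mice (6 WT, 6 rIAPP and 6 hIAPP, 1 library each) was sequenced after ribosomal RNA depletion, per the labels' protocols, which give RNA integrity numbers of 8.4 to 9.5. The deposited values are estimated counts per gene, not normalized by the authors. STAR, HTSeq, GRCm38 and mm10 are named per the submitters' processing notes. How fractions of a count arose, which annotation was used and whether counting followed strand is not given in the sources used here.

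Estimated counts were rounded to whole numbers. Genes were kept by filterByExpr, libraries scaled by TMM and all 18 libraries fitted with edgeR 4.0.16 (R 4.3.3) by its quasi-likelihood test, with contrasts rIAPP minus WT, rIAPP minus hIAPP and hIAPP minus WT. P-values were two-sided and Benjamini-Hochberg adjusted over 20244 genes, and genes under 0.05 are called. CPM values use TMM library sizes, and ± is a standard error of the log2 fold change unless SD is stated. The acinar score, used as a covariate in an alternative fit, is the mean log2 CPM of the 32 acinar markers. Library shares were compared by exact permutation with adjustment over 7 shares. Totals were 127598668 to 166233667 counts in WT and rIAPP. Replicates are separate mice.

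Genes named are Iapp, Ins1 and Ins2, the 15 largest changes in each direction among genes of at least 1 CPM with a proper name, up to 6 called members per list and direction with the smallest p, and list members that did not pass. In the lists of hormones, KATP channel, transcription factors and cell type markers any member may be named, and genes outside this rule are marked. The members and the 53 lists were chosen with earlier results of these data known. The procedure was tested on simulated data. Alternatives were other scaling, filters, thresholds, DESeq2 1.42.0, limma-voom (limma 3.58.1), covariates, left-out genes, a prior count of 0.5 in place of 2 for log2 CPM, and left-out libraries. Promoter windows come from RefSeq. Some list members are not reported here.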

Additional observations from a re-analysis of the deposited data

Results flagged for a closer look

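For each named gene, and for each of the 7 library shares, the 6 libraries of a genotype were checked for 1 library standing apart, meaning that the gap from the highest or lowest library to its nearest neighbour, over the whole range of the group, was above Dixon's critical value for 6 libraries. This held in 29 of 326 groups checked, and chance alone marks about 1 in 20 groups. WT replicate 1 was the highest of its group for Adora1 (44.7 CPM, nearest 39.4) and C1ql3 (0.127 CPM, nearest 0.0872). WT replicate 3 was the highest of its group for Bcat1 (1.03 CPM, nearest 0.541). WT replicate 4 was the highest of its group for Fgf21 (0.124 CPM, nearest 0.0461). WT replicate 5 was the highest of its group for Esrrg (16.9 CPM, nearest 12.3) and Srebf2 (69.3 CPM, nearest 57.0). WT replicate 5 was the lowest of its group for Gcg (17592 CPM, nearest 25150.2) and Rgs4 (43.9 CPM, nearest 51.7). WT replicate 6 was the highest of its group for Bckdhb (21.1 CPM, nearest 18.4), Cpe (2742 CPM, nearest 2367), Ins1 (48127 CPM, nearest 43575), Nnat (354 CPM, nearest 204), Pcsk1 (1038 CPM, nearest 772) and Sytl4 (795 CPM, nearest 535). WT replicate 6 was the lowest of its group for Ffar3 (7.23 CPM, nearest 9.01). rIAPP replicate 1 was the lowest of its group for Rarres1 (3.01 CPM, nearest 5.58). rIAPP replicate 3 was the highest of its group for Lepr (22.3 CPM, nearest 18.9). rIAPP replicate 3 was the lowest of its group for Mnx1 (4.54 CPM, nearest 6.44) and Mt2 (17.4 CPM, nearest 24.4). rIAPP replicate 4 was the highest of its group for Ldha (13.9 CPM, nearest 11.5) and Srebf1 (64.5 CPM, nearest 54.0). rIAPP replicate 5 was the highest of its group for Irx2 (13.5 CPM, nearest 11.2). rIAPP replicate 6 was the highest of its group for Atp2a2 (996 CPM, nearest 776), G6pc2 (1604 CPM, nearest 908), Maob (59.8 CPM, nearest 35.5), Robo1 (49.9 CPM, nearest 41.4) and Tmem215 (156 CPM, nearest 85.2). rIAPP replicate 6 was the lowest of its group for Kcnh6 (36.9 CPM, nearest 47.7) and Pcsk1n (95.6 CPM, nearest 136). Several genes of beta cells thus have rIAPP replicate 6 or WT replicate 6 apart from their groups.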

How the results depend on the processing

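The count of higher genes was 2860 and that of lower genes 2557. With the acinar score as a covariate they were 1225 and 938, with scaling by library totals alone 4554 and 1404, and for changes of at least 2-fold 825 and 508. At an adjusted p under 0.01, 1641 genes were lower. Leaving out each library in turn gave 2513 to 3064 higher and 2115 to 2549 lower genes. The number of named genes that differed between rIAPP and hIAPP was 117, and 73 of them differed at least 2-fold. The remaining alternatives kept these counts within 1.5 times. Of 143 named genes called, 112 kept the call with the acinar score, 31 lost it, and none of these genes changed sign under any alternative run. Cela1 and Ptf1a, among the 31, are part of the score itself. Scaling by library totals alone ended 6 calls, those of Isl1, Lss, Mvk, Nkx2-2, Pcsk1n and Srebf2. In runs that left out 1 library, only Atf4, Ddit3, Lss and Mvk lost a call. The cause of these differences was not tested.

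Signs changed only for values that did not pass. The mitochondrially encoded share differed by 0.003877 percentage points once the 10 most abundant genes were removed. That removal also took mt-Rnr2 and mt-Co1 out of the share itself, so it covers fewer genes than the share given above. With the acinar score the log2 fold changes were 0.218 for Cpe, -0.0599 for Hspa5 and -0.0114 for Xbp1. With library totals the value was 0.0734 for Cpe, and with the mouse number as covariate 0.0107 for Cpe. Leaving out 1 library gave -0.0779 (without rIAPP replicate 4) to 0.0124 (without rIAPP replicate 1) for Cpe, -0.0479 (without WT replicate 5) to 0.117 (without rIAPP replicate 1) for Gcg and -0.0125 (without WT replicate 6) to 0.146 (without rIAPP replicate 6) for Ppy.

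No paired analysis was possible because the labels' mouse numbers differ between all animals, and replicates are numbered in accession order. The values carry these limits. WT and rIAPP mice differ in acinar, stromal and endothelial marker levels, so composition and genotype cannot be told apart. The acinar share of counts itself does not overlap between WT and rIAPP. Batch, sex and time of day are not given in the labels. The labels do not say how many transgenic lines the rIAPP mice represent. Library totals were lower in rIAPP than in WT at the median, and genes under 1 CPM rest on few counts relative to the rest.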

Other observations

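Neighbouring genes that moved together were looked for after the values were seen. Among 19558 tested genes with a position, 14 runs of at least 4 neighbouring genes were all called in 1 direction and changed at least 2-fold. Genes that overlap each other were not excluded, and the number of runs to be found by chance was not estimated. Runs on chromosomes 19, 3, 6 and 7 hold digestive enzyme genes, such as Pnlip, Amy2b, Try5 and Klk1, and rose with the acinar markers.

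A run on chromosome 3 (73047265 to 73594830) held Slitrk3 (4.53, 0.0251 ± 0.0294 CPM in WT and 0.583 ± 0.198 in rIAPP), which encodes a synaptic adhesion protein, and 3 predicted genes, among them Gm38353 (5.51, 0.0115 ± 0.00713 CPM in WT and 0.555 ± 0.0827 in rIAPP). Gm38353 and Gm37725 lie within the bounds of Gm20754, the other of the 3, so these are not separate loci. The values are log2 fold changes and mean CPM ± SD of 6 libraries. On chromosome 9 the run from 76225880 to 77352969 held Tinag (4.90, 0.0220 ± 0.0213 CPM in WT and 0.673 ± 0.173 in rIAPP), which encodes a basement membrane protein, Fam83b (1.21, 2.26 ± 0.193 CPM in WT and 5.23 ± 0.225 in rIAPP), Hcrtr2 and Mlip. On chromosome 5 a run of Ldb2 (1.48, 4.57 ± 0.284 CPM in WT and 12.7 ± 1.31 in rIAPP), a LIM-domain binding factor gene, and 3 noncoding models rose. All 3 models lie within the bounds of Ldb2, so this is 1 locus and their reads may not be separate from those of Ldb2. On chromosome 11 the run with the uridine phosphorylase gene Upp1 (1.26, 6.49 ± 0.570 CPM in WT and 15.5 ± 2.00 in rIAPP) rose too. On the X chromosome, genes of the Rhox3 cluster, a reproductive homeobox family with near-identical copies, rose from levels near 0, as in Rhox3g (5.23, 0.00939 ± 0.00978 CPM in WT and 0.376 ± 0.194 in rIAPP). Runs of predicted genes on chromosome 14 also rose and belong to families of similar copies, so counting can split their reads.

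Runs of lower genes were found on chromosome 6, with the nucleotide sugar transporter gene Slc35b4 (-1.03, 87.7 ± 12.7 CPM in WT and 42.9 ± 7.55 in rIAPP), and on the X chromosome. The latter held Hccs (-1.06, 30.9 ± 2.07 CPM in WT and 14.9 ± 1.36 in rIAPP), which encodes the enzyme that attaches heme to cytochrome c, and Mid1 (-1.08, 8.73 ± 1.83 CPM in WT and 4.12 ± 0.731 in rIAPP), a ubiquitin ligase gene. The hIAPP means were 13.4 CPM for Hccs and 4.11 CPM for Mid1, beside 87.8 CPM for Slc35b4.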
